A study of Rattus norvegicus with 17 samples.

Results

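The lowest dose of dipentyl phthalate (DPeP), 1 mg/kg/d, was set against the corn oil vehicle in the fetal rat testis. The 6 libraries titled for these groups were used, 3 at 1 mg/kg/d and 3 of vehicle, out of 17 libraries in all, and every gene with enough counts was compared. The fetuses were wild-type Sprague Dawley rats. Their dams were gavaged daily with DPeP in corn oil or with corn oil alone, at 2.5 mL/kg, between gestational days 17 and 21. Testes were collected on the last of these days, and RNA of a library came from 1 testis or from 2 testes pooled within a litter. The labels do not say whether every library had a dam of its own, so the p-values speak for libraries and not for litters. In the main fit they set a difference against the spread between libraries within dose groups, pooled over all 17 libraries. Treated in the same way were 3 libraries at 11 mg/kg/d, 3 at 100 mg/kg/d and 5 at 300 mg/kg/d, which gave the levels at higher doses; those at 300 mg/kg/d were also tested against 1 mg/kg/d.

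DPeP is a plasticizer of the phthalate ester class. In the fetal rat testis, phthalates of this kind are known for lowering testosterone output and the RNA of steroid-synthesis genes in Leydig cells, at the stage when the male tract is shaped by androgen. A Leydig cell takes up cholesterol through Scarb1 or makes it from acetyl-CoA, and Star carries it into mitochondria. There Cyp11a1 cuts it to pregnenolone, which Hsd3b1 and Cyp17a1 turn into androgen precursors. Sertoli cells, which make anti-Müllerian hormone (Amh), form the cords around the germ cells, and peritubular myoid cells wrap the cords.

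Libraries held 14282274 to 15777640 gene counts at 1 mg/kg/d, against 15948971 to 17920695 in vehicle. Genes of the mitochondrial genome took 4.35% to 5.26% of gene counts at 1 mg/kg/d, below the 5.58% to 6.16% in vehicle, with no overlap. Ribosomal protein genes took 3.87% to 4.52% of gene counts at 1 mg/kg/d and 4.19% to 4.96% in vehicle, which overlap. The part of these shares in the results below was not tested. Markers that define the tissue were present in all 6 libraries: Amh had at least 1177 CPM, Insl3 at least 764 CPM and Ddx4, a germ cell helicase, at least 38.8 CPM. CPM are counts of a gene scaled to the same library total in every library, with TMM factors.

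No gene passed the threshold at 1 mg/kg/d against vehicle. With the quasi-likelihood test of edgeR and an adjusted p under 0.05, 0 of 18005 genes (0%) were called, and the smallest adjusted p was 0.864. DESeq2 and limma voom, run on the same 17 libraries, also called 0 genes. At an unadjusted p under 0.05 stood 891 genes in edgeR (4.95%), 501 of them higher at 1 mg/kg/d (2.78%) and 390 lower (2.17%). DESeq2, which gave an adjusted p to 26779 genes, had 1010 genes at that unadjusted p, and limma voom had 841 of 18005. The edgeR count depended on the libraries in the fit. It was 1891 of 17727 genes without the 100 mg/kg/d libraries, where the smallest adjusted p was 0.0633 and 0 genes were called. With the compared groups alone it was 1471 of 16771, with 3 genes called, and without replicate 09 at 1 mg/kg/d it was 497 of 18345. The libraries of the groups did not overlap for 2542 genes (14.1%), with 1165 higher at 1 mg/kg/d (6.47%) and 1377 lower (7.65%). The median log2 fold change over all genes was 0.01, with 49% of genes below 0 and 51% above.

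Distances between libraries of the 2 groups overlapped those within a group. Over the 10859 genes with a mean of at least 10 CPM, the median SD of log2 CPM between libraries was 0.118 at 1 mg/kg/d and 0.123 in vehicle. The root mean square difference in log2 CPM between a pair of libraries was 0.223 to 0.255 within 1 mg/kg/d and 0.233 to 0.288 within vehicle. Between the groups it was 0.217 to 0.361, and the highest of these joined replicate 09 at 1 mg/kg/d to vehicle replicate 15. For a single gene the median standard error of the log2 fold change was 0.18. An exact permutation test of 3 libraries against 3 cannot go below p = 0.1, so no such test is given for single genes.

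The smallest p belonged to RGD1311744 (ENSRNOG00000005960, mRatBN7.2 chromosome 8, 39870563 to 39893187). It had 125, 134 and 132 CPM in replicates 02, 09 and 10 at 1 mg/kg/d, against 56.5, 46.1 and 49.4 CPM in vehicle replicates 01, 08 and 15. Every library at 1 mg/kg/d was above every vehicle library, 2.57-fold between the means. The log2 fold change was 1.36 (SE 0.27, unadjusted p = 6.80e-05), which left an adjusted p of 0.864 in edgeR. Higher doses had high levels too, at 109 to 194 CPM at 11 mg/kg/d, 120 to 264 CPM at 100 mg/kg/d and 86.7 to 178 CPM at 300 mg/kg/d. All 14 libraries with DPeP, the lowest at 86.7 CPM, were thus above the highest vehicle library, at 56.5 CPM. All these dose values share the same 3 vehicle libraries, by which the gene was picked. The share of all genes with this pattern was not counted. RGD1311744 was called in 3 of 16 alternatives for 1 mg/kg/d: with no filter on low counts (adjusted p = 0.0153 in edgeR), in edgeR on the compared groups alone (adjusted p = 0.000104), and there with the sample code as a term (adjusted p = 0.00218). Over the 16 alternatives the smallest adjusted p of any gene lay between 0.000104 and 0.999.

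**Figure D1:**
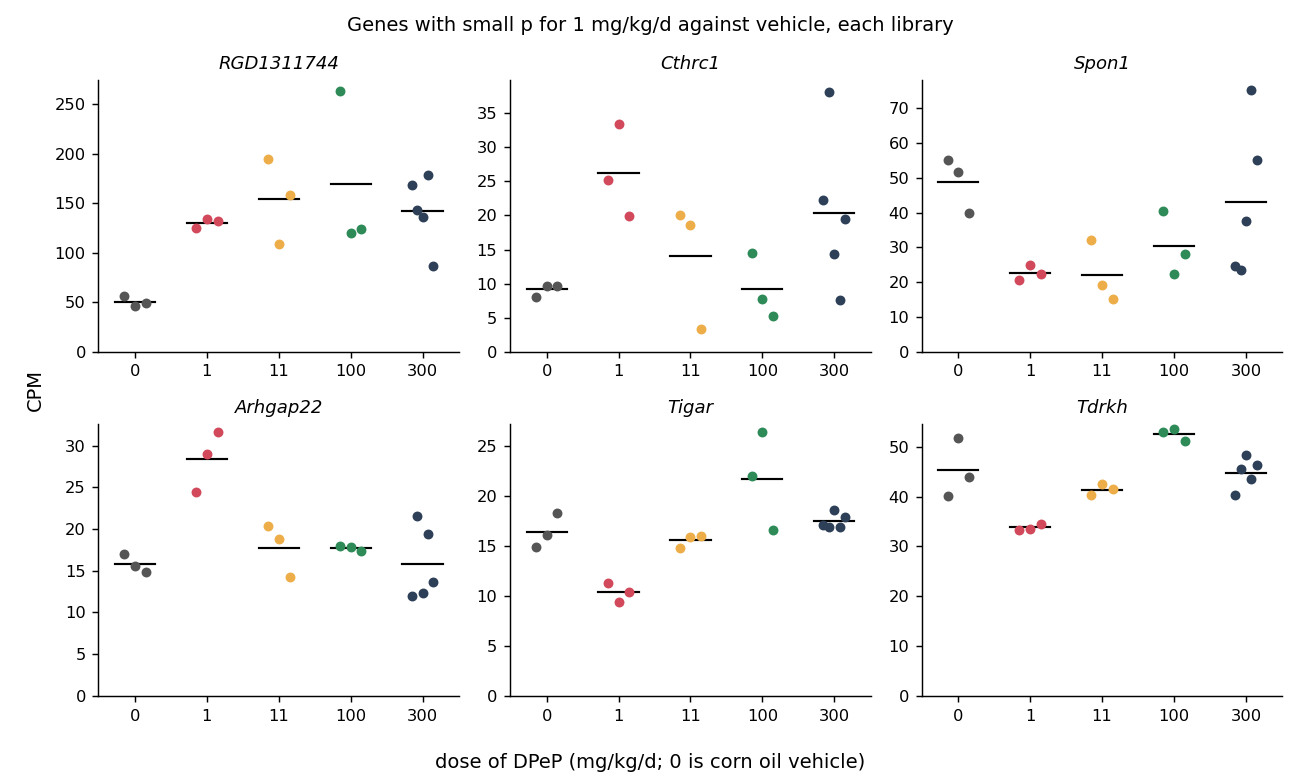
CPM (linear axes that start at 0) of 6 genes in each of the 17 libraries by dose of DPeP, with 0 for corn oil vehicle; points are libraries and black lines are group means. RGD1311744 is above 86 CPM in each library with DPeP and at most 56.5 CPM in vehicle, while Arhgap22, Tigar and Tdrkh stand apart from vehicle at 1 mg/kg/d and overlap vehicle at 11 mg/kg/d.

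The fit of the compared groups alone called 2 further genes. Cthrc1 (ENSRNOG00000004578, chromosome 7, 70122474 to 70132756), a secreted protein of matrix remodelling, had 25.2, 33.4 and 20.0 CPM at 1 mg/kg/d, against 8.04, 9.72 and 9.66 CPM in vehicle. Its log2 fold change was 1.52 (SE 0.51), with an adjusted p of 0.0142 in edgeR on these groups alone and of 0.864 in the fit of all libraries. Spon1 (ENSRNOG00000058003, chromosome 1, 167928972 to 168228226), a matrix protein also called F-spondin, had 20.8, 24.8 and 22.2 CPM at 1 mg/kg/d, against 55.0, 51.7 and 39.8 CPM in vehicle. Neither gene overlapped between the groups, Cthrc1 being higher and Spon1 lower at 1 mg/kg/d. At higher doses both spread widely: Cthrc1 had 3.40 to 20.1 CPM at 11 mg/kg/d, 5.25 to 14.5 CPM at 100 mg/kg/d and 7.56 to 38.2 CPM at 300 mg/kg/d. Spon1 had 15.2 to 32.1 CPM at 11 mg/kg/d, 22.5 to 40.4 CPM at 100 mg/kg/d and 23.5 to 75.2 CPM at 300 mg/kg/d.

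Several other genes of small p stood apart from vehicle at 1 mg/kg/d and not at the next dose. Arhgap22, a GTPase-activating protein, had 24.5, 29.1 and 31.6 CPM at 1 mg/kg/d, against 17.0, 15.5 and 14.8 CPM in vehicle (log2 fold change 0.85, SE 0.20, unadjusted p = 0.000341). Tigar, a phosphatase that slows glycolysis, had 11.3, 9.41 and 10.4 CPM at 1 mg/kg/d, against 14.9, 16.1 and 18.3 CPM in vehicle (-0.66, SE 0.15, unadjusted p = 0.000255). Tdrkh, a Tudor-domain protein of the piRNA pathway in germ cells, had 33.4, 33.6 and 34.6 CPM at 1 mg/kg/d, against 40.1, 51.7 and 44.0 CPM in vehicle (-0.42, SE 0.10, unadjusted p = 0.000591). In each the 3 libraries at 1 mg/kg/d lay on 1 side of all 3 vehicle libraries. At 11 mg/kg/d, Arhgap22 had 14.2 to 20.3 CPM, Tigar 14.8 to 16.0 CPM and Tdrkh 40.3 to 42.5 CPM, each overlapping vehicle. No test of 11 against 1 mg/kg/d was run. Genes picked for small p at 1 mg/kg/d tend to lie nearer vehicle in other libraries, so no dose pattern is read from them.

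Among the rest of the 10 higher genes of smallest p, log2 fold changes ran between 0.48 and 1.64. Hs6st1, which sulfates heparan chains, had 140, 136 and 157 CPM at 1 mg/kg/d, against 96.1, 98.1 and 117 CPM in vehicle. Gpsm3, a modulator of G protein signals, had 5.86, 5.16 and 4.33 CPM at 1 mg/kg/d, against 2.79, 1.90 and 1.55 CPM in vehicle. Ptger1, a prostaglandin E2 receptor, had 19.2, 31.6 and 30.9 CPM at 1 mg/kg/d, against 17.9, 14.4 and 18.0 CPM in vehicle. None of these 3 overlapped between the groups, and neither did Hey2, a repressor downstream of Notch, with a log2 fold change of 0.95 (SE 0.25). The other members were Bag3, a partner of heat shock proteins, Soga3, Abcd4 and Lbp. The 10 lower genes of smallest p included Hmgcs1 and Msmo1 of cholesterol synthesis, described below, Oacyl, Kbtbd11, Slc44a4, Mllt3, Kcnmb3 and Cdkl4, with log2 fold changes between -1.06 and -0.36. By size among genes whose groups did not overlap, Ccl21, a chemokine of lymphoid tissue, had 13.0, 18.0 and 13.5 CPM at 1 mg/kg/d, against 1.39, 5.08 and 5.76 CPM in vehicle. Dkk2, a modulator of Wnt signals, had 11.7, 10.2 and 8.53 CPM at 1 mg/kg/d, against 3.67, 4.30 and 3.84 CPM in vehicle.

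Genes of the androgen pathway at 1 mg/kg/d had log2 fold changes between -0.60 and 0.07 for the members described here, and none was called. Cyp17a1 had 1258, 923 and 798 CPM at 1 mg/kg/d, against 1641, 1286 and 1584 CPM in vehicle. All 3 libraries at 1 mg/kg/d were below all 3 of vehicle, with a log2 fold change of -0.60 (SE 0.20, unadjusted p = 0.00801). Star had 562, 382 and 345 CPM at 1 mg/kg/d, against 549, 659 and 688 CPM in vehicle. These overlapped, since replicate 02 at 1 mg/kg/d was above vehicle replicate 01, and the log2 fold change was -0.56 (SE 0.21, unadjusted p = 0.0141). Replicate 02 was the highest library at 1 mg/kg/d for both, and without it the values were -0.81 for Cyp17a1 and -0.80 for Star.

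Other members of the pathway, with Insl3, overlapped vehicle in level. Cyp11a1 had 1073, 955 and 848 CPM at 1 mg/kg/d, against 1078, 618 and 1051 CPM in vehicle, a log2 fold change of 0.07 with a 95% interval of -0.29 to 0.43. Insl3, which Leydig cells secrete to guide the descent of the testis, had 977, 839 and 769 CPM at 1 mg/kg/d, against 814, 764 and 1010 CPM in vehicle, with an interval of -0.56 to 0.56. For both genes the groups overlapped, and the sign of the value changed when single libraries were left out. Scarb1, the receptor for lipoprotein cholesterol, had -0.36 (SE 0.19) and Lhcgr, the receptor of luteinizing hormone, -0.44 (SE 0.24). Without vehicle replicate 01 these were -0.20 for Scarb1 and -0.19 for Lhcgr, and without replicate 02 at 1 mg/kg/d Scarb1 had -0.60. Hsd3b1, whose reads could be shared with related Hsd3b genes, had -0.17 (SE 0.24). Nr5a1, a transcription factor of steroid-producing cells, had 0.05 (SE 0.13).

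**Figure D2:**
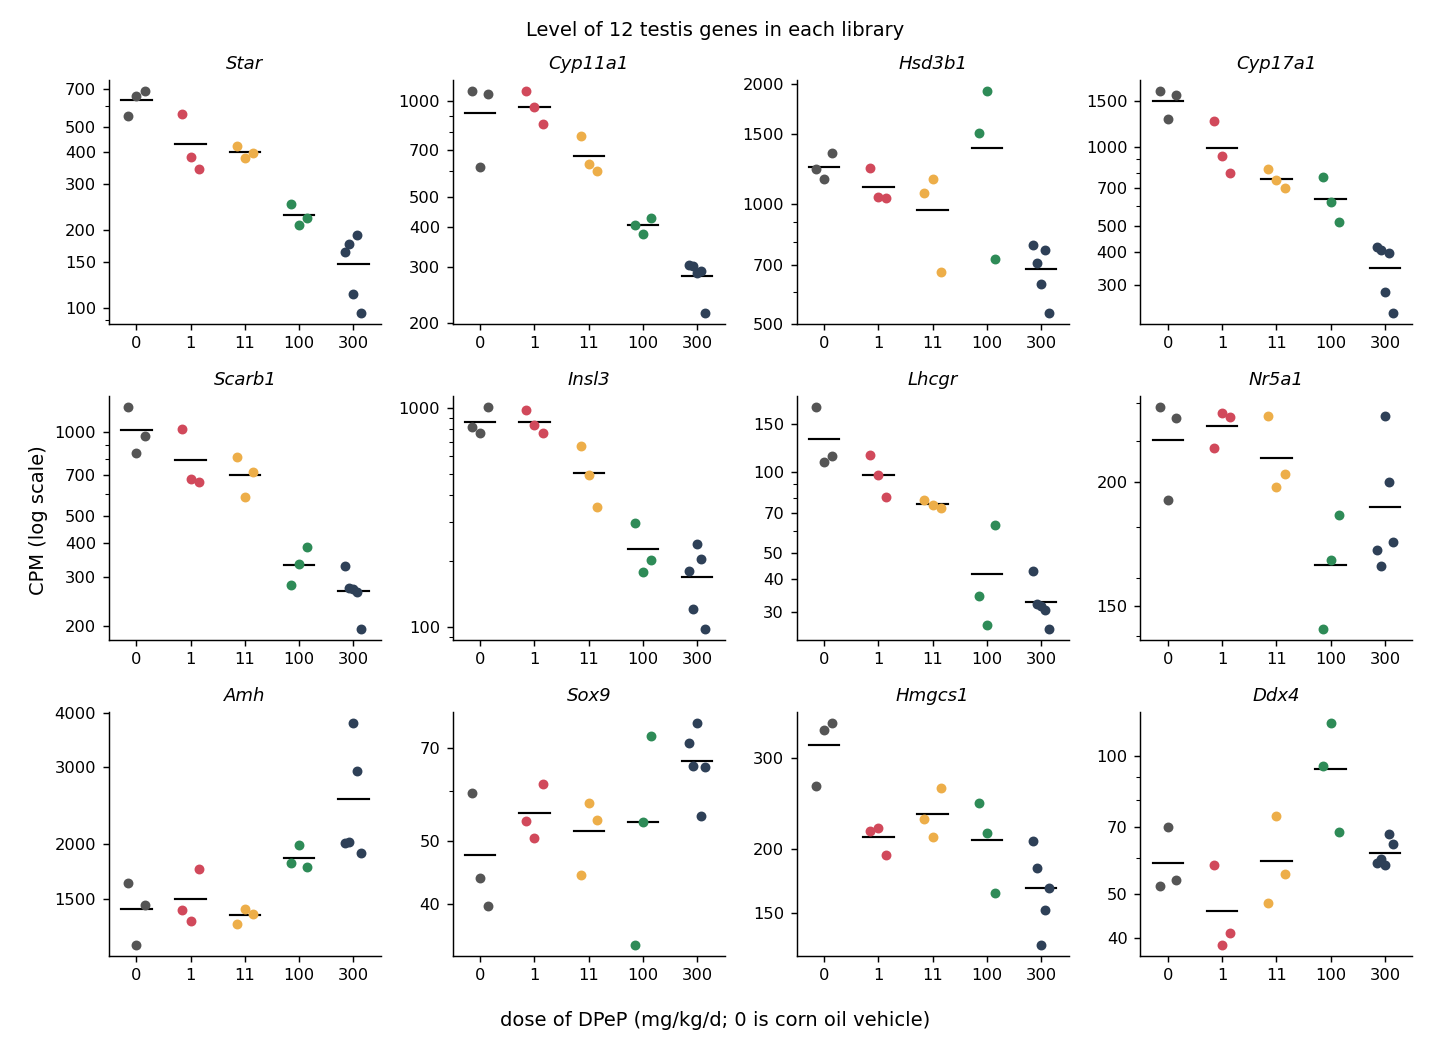
CPM (log scale) of 12 testis genes in each library by dose of DPeP, with 0 for corn oil vehicle; points are libraries and black lines are group means. At 1 mg/kg/d Cyp11a1 and Insl3 overlap vehicle, Cyp17a1 and Hmgcs1 lie below every vehicle library, and at 300 mg/kg/d Star, Cyp11a1, Cyp17a1, Scarb1, Insl3 and Lhcgr lie below every library at 1 mg/kg/d.

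In the androgen synthesis list, 0 of 16 genes were called, and the median was -0.10, beside 0.01 over all genes. At an unadjusted p under 0.05, 3 (Cyp17a1, Star and Hsd17b7) were lower, beside 2.17% of all genes. Hsd17b7 also stands in the cholesterol synthesis list and is counted there again. In the Leydig cell list, 0 of 20 genes were called, 2 were lower at an unadjusted p under 0.05 and the median was -0.06. Without replicate 02 at 1 mg/kg/d the median was -0.22 with 5 such lower members, without vehicle replicate 08 it was -0.18 with 4, without replicate 10 at 1 mg/kg/d -0.12 and without vehicle replicate 01 -0.11. There Hsd11b1, which regenerates active glucocorticoid, had 2.81, 2.58 and 2.10 CPM at 1 mg/kg/d, against 0.95, 1.62 and 1.30 CPM in vehicle, higher in each library. Of the 16 regulators of steroid synthesis, 0 were called, 12 had values above 0 and the median was 0.07. In bulk samples fewer cells of a type and less RNA per cell cannot be told apart.

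Set against 1 mg/kg/d, the highest dose changed 518 of 18005 genes (2.88%), of which 241 rose (1.34%) and 277 fell (1.54%) at 300 mg/kg/d. Star, Cyp11a1, Cyp17a1, Scarb1, Lhcgr and Insl3 were among those that fell. Star had 96.0, 165 and 191 CPM as lowest, median and highest of the 5 libraries at 300 mg/kg/d, below the 345 to 562 CPM at 1 mg/kg/d. The log2 fold changes of 300 against 1 mg/kg/d were -1.54 for Star, -1.77 for Cyp11a1, -1.52 for Cyp17a1, -1.57 for Scarb1, -1.58 for Lhcgr and -2.36 for Insl3. The largest adjusted p among these 6 was 0.000120 by edgeR's quasi-likelihood test, for Lhcgr. Hsd3b1 had -0.69 (adjusted p = 0.0971 in edgeR), and was called in 4 of 16 alternatives. In the lists, 7 of 16 androgen synthesis genes fell and 0 rose, and 10 of 20 Leydig cell genes fell and 1 rose. This comparison uses the same 3 libraries at 1 mg/kg/d as the one with vehicle, so the values stand side by side and do not support each other.

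The call counts of this comparison leaned on single libraries. They were 298, 217 and 202 without replicates 02, 09 and 10 at 1 mg/kg/d, and 342 and 306 without replicates 07 and 20 at 300 mg/kg/d. The falls of Star, Cyp11a1, Cyp17a1, Scarb1, Lhcgr and Insl3 were called in each of the 16 alternatives.

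Of the 26 lists, cholesterol synthesis held the most members at an unadjusted p under 0.05, 13 of them lower at 1 mg/kg/d, and none was called. Of the 23 tested, 19 had a log2 fold change below 0, against 49% of all genes, and the median was -0.39. The 13 lower members stand beside 2.17% of all genes lower at that p, and 1 member, Scap, was higher. The groups did not overlap for 16 lower members (7.65% of all genes) and 2 higher ones, Mvk and Scap. Fdps of the list of 24 matched no symbol in the files. The list holds the enzymes and the genes of the feedback loop that senses sterol. In that loop, low sterol lets Scap bring the transcription factor Srebf2 to its activation, and Insig1 holds Scap back.

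The early enzymes Hmgcs1 and Idi1 were lower in every library at 1 mg/kg/d, without a call. Hmgcs1 (ENSRNOG00000016552, mRatBN7.2 chromosome 2, 51649497 to 51667100), which makes the precursor of mevalonate, had 217, 220 and 195 CPM at 1 mg/kg/d, against 265, 340 and 351 CPM in vehicle. The log2 fold change was -0.60 (SE 0.16, unadjusted p = 0.00132, adjusted p = 0.864 in edgeR). All 3 libraries at 1 mg/kg/d were below all 3 of vehicle, and vehicle replicate 01 was the lowest of its group. Idi1, which makes the building block of the isoprenoid chain, had 56.5, 39.9 and 48.6 CPM at 1 mg/kg/d, against 65.2, 85.3 and 92.0 CPM in vehicle (-0.74, SE 0.29).

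Of the later enzymes, some were lower in every library and some overlapped vehicle. Msmo1 (ENSRNOG00000032297, chromosome 16, 24980697 to 24998016), a sterol demethylase, had 67.4, 61.3 and 57.2 CPM at 1 mg/kg/d, against 80.0, 110 and 103 CPM in vehicle (-0.65, SE 0.18). Cyp51, which demethylates lanosterol, had 161, 139 and 146 CPM at 1 mg/kg/d, against 188, 222 and 228 CPM in vehicle (-0.52, SE 0.18). Neither overlapped between the groups. Lss, which closes the sterol rings, had 68.1, 56.4 and 34.8 CPM at 1 mg/kg/d, against 53.7, 53.7 and 44.3 CPM in vehicle, with the highest and the lowest library both at 1 mg/kg/d.

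The regulators split. Insig1 had 79.8, 80.8 and 66.5 CPM at 1 mg/kg/d, against 84.5, 120 and 119 CPM in vehicle (-0.51, SE 0.16), with no overlap. Scap had 126, 163 and 138 CPM at 1 mg/kg/d, against 122, 107 and 122 CPM in vehicle (0.29, SE 0.13), so that every library at 1 mg/kg/d was higher. Srebf2 had 176, 217 and 187 CPM at 1 mg/kg/d, against 204, 181 and 171 CPM in vehicle, and overlapped (0.06, SE 0.14).

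**Figure D3:**
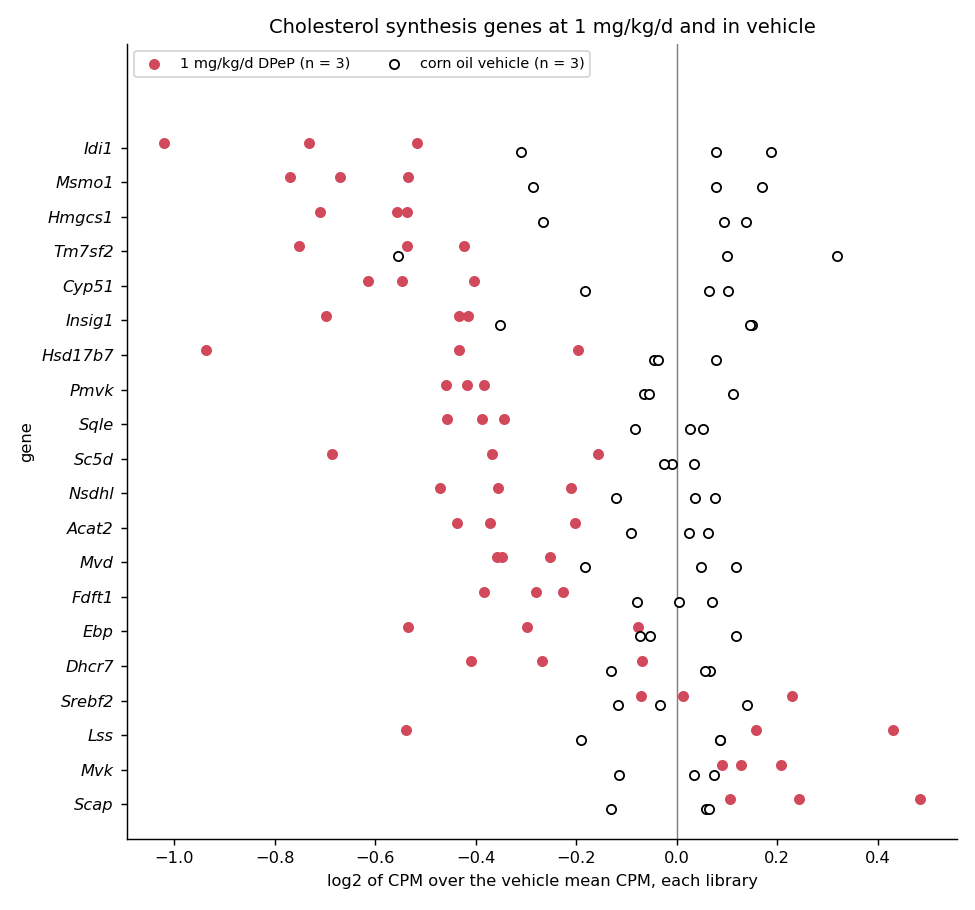
Log2 of CPM over the vehicle mean CPM for 20 of the 23 tested genes of the cholesterol synthesis list, with filled points for the 3 libraries at 1 mg/kg/d and open points for the 3 vehicle libraries, ordered by log2 fold change. For 14 of the plotted genes all filled points lie left of all open points, and for Mvk and Scap they lie right of them.

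The list median was -0.41 to -0.31 when 1 of the 6 libraries was left out. The count of members lower at an unadjusted p under 0.05, 13 with all libraries, was 7 without replicate 10 at 1 mg/kg/d or without vehicle replicate 15, and at most 11 without any other. The titles carry a sample code whose meaning is not given, with 1 library of each group per code. Within the codes S446, S447 and S448 the median log2 ratio of the list was -0.48, -0.43 and -0.19, and 17 of 23 members were below 0 in all 3. These ratios pair the same 6 libraries anew and are no separate support. The share of all genes below 0 in all 3 codes was not counted. From 1 to 300 mg/kg/d, 0 of 23 members were called by edgeR, with a median of -0.22. At 11 mg/kg/d Hmgcs1 had 210 to 262 CPM, at 100 mg/kg/d 164 to 245 CPM and at 300 mg/kg/d 130 to 207 CPM. All 14 libraries with DPeP, the highest at 262 CPM, were below the lowest vehicle library, at 265 CPM. Msmo1, at 39.4 to 76.8 CPM over the 14 libraries, was below the lowest vehicle library at 80.0 CPM as well. Both genes were among those of smallest p against these same vehicle libraries, so the doses do not support each other. The share of all genes with this pattern was not counted.

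Upstream sequence is shown for 3 of these genes, since sterol-regulated promoters are known to pair a sterol response element with a CCAAT box, the site of the factor NF-Y. The 250 bases before the gene start are from RefSeq on the build GRCr8, 5′ to 3′ on the gene's strand, with capitals for CCAAT or, on the other strand, ATTGG. Hmgcs1 lies on the plus strand of chromosome 2 (53382054 to 53382303), Msmo1 on the plus strand of chromosome 16 (29746863 to 29747112) and Insig1 on the minus strand of chromosome 4 (8057770 to 8058019).
Hmgcs1: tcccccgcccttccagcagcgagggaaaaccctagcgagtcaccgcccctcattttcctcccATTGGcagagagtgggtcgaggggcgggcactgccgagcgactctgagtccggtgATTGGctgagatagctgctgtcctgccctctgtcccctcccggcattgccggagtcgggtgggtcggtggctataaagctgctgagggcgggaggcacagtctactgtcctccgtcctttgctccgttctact
Msmo1: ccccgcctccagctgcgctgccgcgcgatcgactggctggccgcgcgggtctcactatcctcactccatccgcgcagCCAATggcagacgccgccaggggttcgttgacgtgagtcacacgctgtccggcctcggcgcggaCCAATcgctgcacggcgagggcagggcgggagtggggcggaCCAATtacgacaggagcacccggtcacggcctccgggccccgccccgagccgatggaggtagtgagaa
Insig1: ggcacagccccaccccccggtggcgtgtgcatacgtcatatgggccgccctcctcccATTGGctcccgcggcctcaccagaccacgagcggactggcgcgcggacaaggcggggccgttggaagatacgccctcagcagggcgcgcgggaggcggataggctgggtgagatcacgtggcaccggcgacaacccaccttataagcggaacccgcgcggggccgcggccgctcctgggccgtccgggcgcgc

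These windows held 2, 3 and 1 CCAAT matches on either strand, and all motifs were searched on both strands. Of the 17 list genes with an entry in the promoter table, 13 held CCAAT in this window, against 34% of 33469 promoters. The sterol response letters TCACNCCAC were in 0 of the 17 and in 0.974% of all promoters. The shorter CACNCCAC, which lies within them, was in Acat2, Ebp and Insig1, 3 of the 17, and in 4.89% of all. The letters TCACCCCAC were in 0 of the 17 and in 0.409% of all. The motifs were chosen after the values were seen, and a match is a string of letters, not a shown site.

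Cholesterol uptake, storage and export had no such pattern, with 0 of 23 called, a median of 0.01 and 1 lower gene at an unadjusted p under 0.05. In fatty acid synthesis 0 of 13 were called and the median was -0.03. Me1, which supplies NADPH, had 246, 230 and 255 CPM at 1 mg/kg/d, against 337, 326 and 321 CPM in vehicle (-0.43, SE 0.15), with no overlap. Scd, a desaturase, had 8.54, 5.44 and 3.37 CPM at 1 mg/kg/d, against 8.17, 13.1 and 8.86 CPM in vehicle, and overlapped. Among PPAR targets and fatty acid oxidation genes 0 of 27 were called, with a median of 0.03. Angptl4, an inhibitor of lipoprotein lipase, had 60.5, 63.7 and 66.0 CPM at 1 mg/kg/d, against 49.6, 40.8 and 57.1 CPM in vehicle (0.37, SE 0.14). From 1 to 300 mg/kg/d, 5 of 27 PPAR targets and 3 of 13 fatty acid synthesis genes fell, beside 1.54% of all genes.

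Most markers of peritubular myoid cells had values above 0 at 1 mg/kg/d, without calls, and replicate 09 was the highest of the 3 libraries for 12 of the 13. Of these, 12 had values above 0, 5 were higher at an unadjusted p under 0.05 (2.78% of all genes were) and the median was 0.27. Acta2, smooth muscle actin, had 531, 797 and 602 CPM at 1 mg/kg/d, against 478, 463 and 445 CPM in vehicle (0.48, SE 0.20). Tagln, a smooth muscle actin-binding protein, had 243, 381 and 238 CPM at 1 mg/kg/d, against 185, 192 and 197 CPM in vehicle (0.59, SE 0.24). Myl9, a myosin light chain and an abundant member, had 601, 602 and 629 CPM at 1 mg/kg/d, against 610, 535 and 703 CPM in vehicle (-0.01, SE 0.12), and overlapped. The groups did not overlap for Acta2 and Tagln. Summed over the list, myoid genes had 2498 to 3268 CPM at 1 mg/kg/d and 2224 to 2365 CPM in vehicle. Without replicate 09 at 1 mg/kg/d the myoid median was 0.14 and 0 members stood at an unadjusted p under 0.05. Replicate 09 also had the lowest mitochondrial share, 4.35%, whose part in these values was not tested.

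Genes of Leydig progenitors and interstitial cells were mixed: 0 of 18 were called, 12 had values above 0 and 6 below, and the median was 0.16. Without replicate 09 at 1 mg/kg/d the median was 0.08, and 1 member was higher at an unadjusted p under 0.05, against 3 with all libraries. Col1a1, of type I collagen, had 3565, 5530 and 4290 CPM at 1 mg/kg/d, against 3249, 3323 and 2821 CPM in vehicle (0.51, SE 0.16). These did not overlap. Col3a1, of type III collagen, had 5548, 6537 and 6354 CPM at 1 mg/kg/d, against 5861, 5699 and 5636 CPM in vehicle, and overlapped (0.10, SE 0.12). Dcn, a matrix proteoglycan, had a log2 fold change of -0.23.

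**Figure D4:**
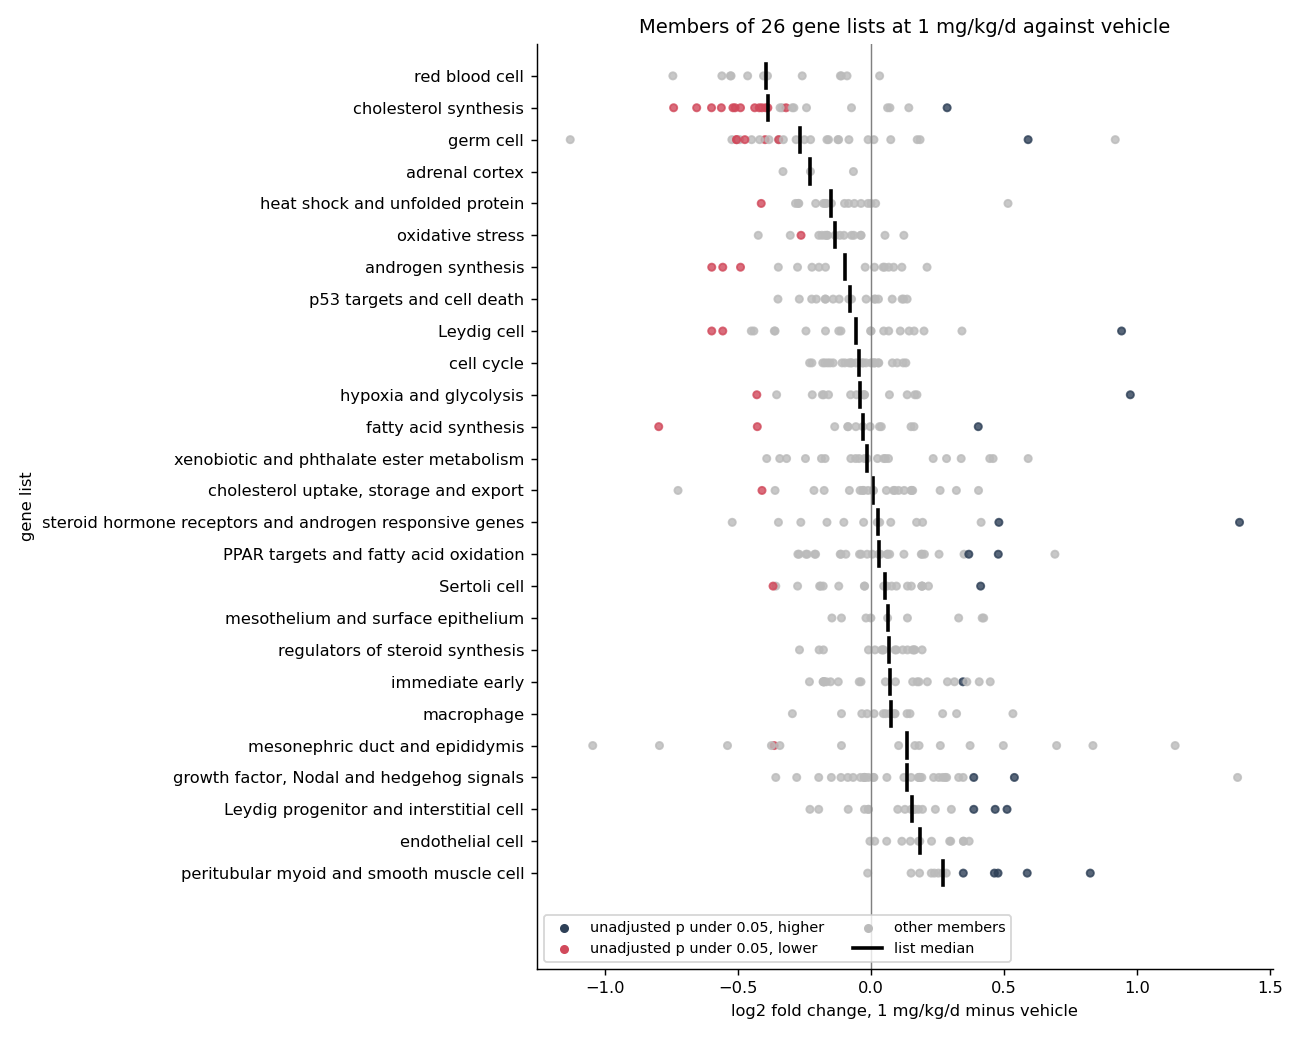
Log2 fold change of 1 mg/kg/d minus vehicle for each tested member of 26 gene lists, ordered by list median (black bar); blue and red points have an unadjusted p under 0.05 and no point is called. Cholesterol synthesis holds 13 red points with a median of -0.39, and the myoid list 5 blue points with a median of 0.27.

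Germ cell markers mostly had lower values at 1 mg/kg/d, again without calls. Of 28, 22 were below 0 and 6 above, and the median was -0.27. At an unadjusted p under 0.05, 5 were lower and 1 was higher, beside 2.17% and 2.78% of all genes. The groups did not overlap for 6 lower and 3 higher members, beside 7.65% and 6.47% of all genes. Mael, which guards the germline against transposons, had 112, 95.6 and 101 CPM at 1 mg/kg/d, against 135, 157 and 145 CPM in vehicle (-0.50, SE 0.16). Piwil2, a partner of piRNAs, had 107, 119 and 88.5 CPM at 1 mg/kg/d, against 133, 157 and 125 CPM in vehicle (-0.40, SE 0.15). Stk31, a germ cell kinase-like protein, had 145, 96.9 and 117 CPM at 1 mg/kg/d, against 161, 201 and 147 CPM in vehicle (-0.50, SE 0.21). None of these 3 overlapped, whereas Ddx4 did, at 58.0, 38.8 and 41.1 CPM at 1 mg/kg/d, against 52.0, 69.9 and 53.5 CPM in vehicle. Tfap2c, a factor of early germ cells, was the 1 member higher at that unadjusted p. It had 1.56, 1.60 and 1.85 CPM at 1 mg/kg/d, against 1.08, 0.95 and 1.30 CPM in vehicle. The list sum was 874 to 995 CPM at 1 mg/kg/d, against 1072 to 1282 CPM in vehicle. The 5 members lower at an unadjusted p under 0.05 became 2 without replicate 10 at 1 mg/kg/d or without vehicle replicate 08. From 1 to 300 mg/kg/d, 5 of 28 germ cell markers rose, beside 1.34% of all genes, and 0 fell. That comparison shares the libraries at 1 mg/kg/d in which the list was low, which favours rises. Mael, Ddx4 and Stk31 were not among those called. Their log2 fold changes at 300 mg/kg/d against vehicle were 0.007, 0.07 and -0.14, so these genes were near vehicle there.

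Sertoli cell markers had a median near vehicle, 0.05, with 0 of 20 called. The groups did not overlap for 4 lower and 2 higher members, beside 7.65% and 6.47% of all genes. At an unadjusted p under 0.05, 1 member was lower and 1 was higher, beside 2.17% and 2.78% of all genes. Amh had 1416, 1331 and 1752 CPM at 1 mg/kg/d, against 1634, 1177 and 1453 CPM in vehicle, with a log2 fold change of 0.08 and a 95% interval of -0.35 to 0.50. Against 1 mg/kg/d, 7 of 20 Sertoli cell markers rose at 300 mg/kg/d, beside 1.34% of all genes, and 0 fell. Amh rose by 0.76 (SE 0.19, adjusted p = 0.0305 in edgeR), a call lost in 6 of 16 alternatives, among them those without any 1 of replicates 02, 09 and 10 at 1 mg/kg/d and 13 and 14 at 300 mg/kg/d.

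Red blood cell genes, a sign of how much blood a testis held, had a median of -0.40 with 11 of 12 below 0 and 0 called. The median was -0.23 without replicate 02 at 1 mg/kg/d and -0.58 without replicate 09. Hbb-b1, of beta globin, had 1371, 2093 and 1454 CPM at 1 mg/kg/d, against 2505, 2231 and 2515 CPM in vehicle, lower in every library, and its reads could be shared with other globin genes. The list sum was 5502 to 10101 CPM at 1 mg/kg/d and 9023 to 10646 CPM in vehicle, and these overlapped. Endothelial genes had a median of 0.18, with 12 of 13 above 0, and macrophage genes a median of 0.07, with 0 called in both. Markers of mesonephric duct and epididymis, tissue next to the testis, summed to 398 to 513 CPM at 1 mg/kg/d. In vehicle their sum was 556 to 685 CPM, with no overlap. The median of the list was 0.13 with 9 of 16 members above 0, so the sum leans on abundant members, Svs5 and Cdh1 among them. Svs5, a seminal vesicle protein of that list, had 150, 78.9 and 101 CPM at 1 mg/kg/d, against 268, 127 and 178 CPM in vehicle (-0.79, SE 0.47), and it fell by 3.40 from 1 to 300 mg/kg/d (adjusted p = 9.50e-05 in edgeR).

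Of the adrenal cortex list, whose genes fetal steroid-making cells can share, 3 of 6 members had enough counts. Mrap, a partner of the ACTH receptor, had 15.7, 11.8 and 12.3 CPM at 1 mg/kg/d, against 14.7, 12.1 and 15.0 CPM in vehicle, and overlapped. Cyp11b1, of corticosterone synthesis, had 15.7, 8.02 and 6.81 CPM at 1 mg/kg/d, against 13.2, 8.54 and 14.1 CPM in vehicle, and overlapped. From 1 to 300 mg/kg/d Mrap fell by 3.25 and Cyp11b1 by 4.12 (adjusted p = 4.97e-09 and 1.78e-06 in edgeR). The members with few counts, Cyp11b2, Cyp21a1 and Mc2r, had 96, 14 and 32 counts over all 17 libraries.

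Stress genes had values mostly below 0 at 1 mg/kg/d, in 15 of 17 genes of oxidative stress (median -0.14) and 14 of 17 of heat shock and unfolded protein (median -0.15), with 0 called. Without vehicle replicate 15 the heat shock median was -0.04. Hsp90aa1, a chaperone, had 1067, 849 and 982 CPM at 1 mg/kg/d, against 1210, 1334 and 1311 CPM in vehicle (-0.41, SE 0.19), with no overlap. Cell cycle genes had a median of -0.04 and 0 of 26 at an unadjusted p under 0.05, and genes of p53 and cell death a median of -0.08 and 0 of 18. Medians were -0.04 for hypoxia and glycolysis, 0.07 for immediate early genes, -0.01 for xenobiotic and phthalate ester metabolism and 0.06 for mesothelium, with 0 called in each.

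Receptors and growth factors likewise had no calls. Gper1, a membrane estrogen receptor, had 0.87, 1.60 and 1.97 CPM at 1 mg/kg/d, against 0.82, 0.56 and 0.31 CPM in vehicle, a low level with no overlap (1.38, SE 0.43). Per1, a clock gene that also answers glucocorticoid, had 76.9, 82.5 and 86.1 CPM at 1 mg/kg/d, against 68.8, 52.9 and 54.2 CPM in vehicle (0.48, SE 0.16). Gli1, a target of the hedgehog signal from Sertoli cells, had 101, 109 and 92.4 CPM at 1 mg/kg/d, against 91.8, 61.5 and 78.1 CPM in vehicle (0.39, SE 0.18). Per1 and Gli1 were higher in every library at 1 mg/kg/d. The receptor list had a median of 0.03 and the growth factor list, which holds Gli1, a median of 0.14.

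Some genes differed more among libraries of 1 group than between groups. Cdh1, the epithelial cadherin, had 5.11, 143 and 6.43 CPM in replicates 02, 09 and 10 at 1 mg/kg/d, against 145, 116 and 57.3 CPM in vehicle. Alb, made by liver, had 0.50, 41.8 and 0.32 CPM at 1 mg/kg/d, against 0.32, 4.47 and 1.36 CPM in vehicle. Fgb, a fibrinogen chain also made by liver, had 0.12, 6.27 and 0.32 CPM at 1 mg/kg/d, against 0.06, 1.45 and 0.31 CPM in vehicle. Replicate 09 was thus the highest of its group for all 3. Alb also reached 90.0 CPM in 1 library at 300 mg/kg/d, with a median of 0.69 CPM there.

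Other genes were low in some libraries and high in the rest. H3f3c, a histone H3 gene whose reads could be shared with near-identical copies, had 3.99, 3.14 and 49.5 CPM at 1 mg/kg/d, against 50.2, 53.3 and 65.0 CPM in vehicle, so that replicate 10 lay just below vehicle. At 11 mg/kg/d it ran between 4.18 and 54.9 CPM, at 100 mg/kg/d between 5.38 and 8.44 CPM and at 300 mg/kg/d between 4.04 and 50.2 CPM. RGD1359290 had 68.4, 119 and 145 CPM at 1 mg/kg/d, against 5.51, 165 and 115 CPM in vehicle, with vehicle replicate 01 far below the rest. Ephx2, an epoxide hydrolase, had 29.7, 20.2 and 24.4 CPM at 1 mg/kg/d, against 4.81, 42.5 and 14.6 CPM in vehicle. The gene AABR07001512.1 had 6.67, 0.28 and 0.51 CPM at 1 mg/kg/d, against 13.6, 13.1 and 13.6 CPM in vehicle.

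**Figure D5:**
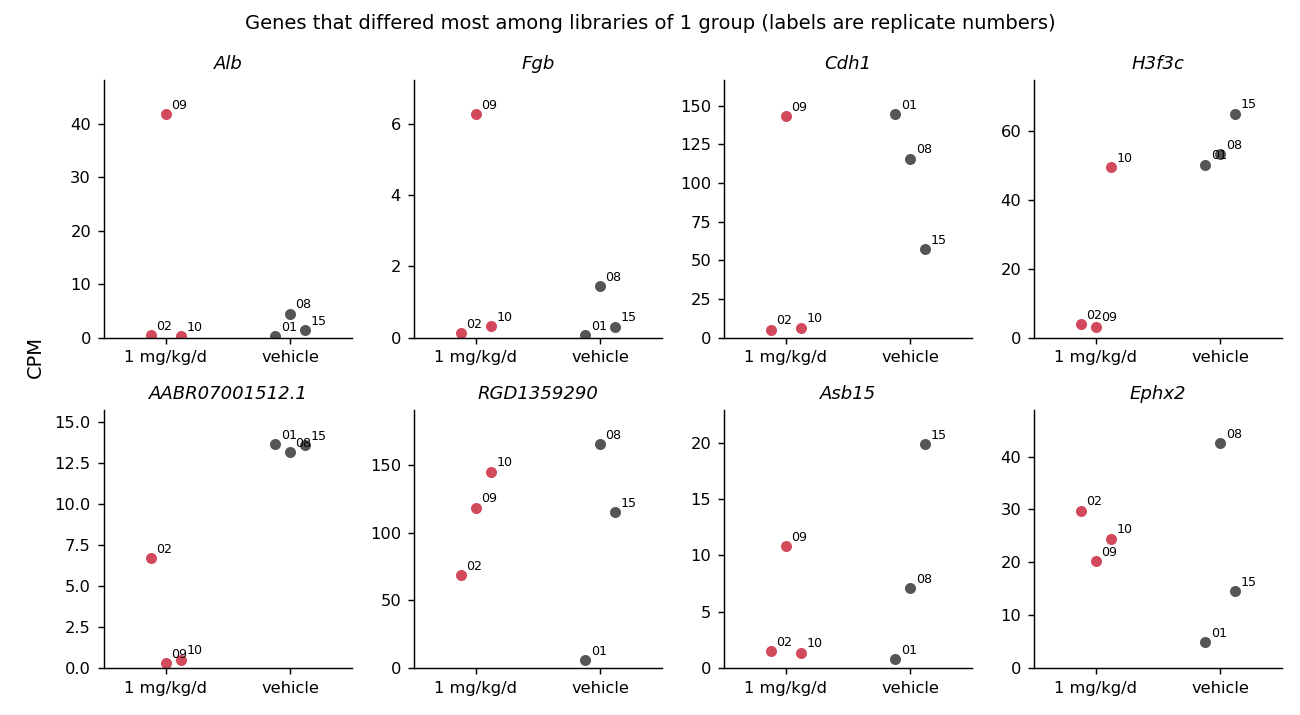
CPM (linear axes that start at 0) of 8 genes with wide spread within a group, in the 3 libraries at 1 mg/kg/d on the left and the 3 vehicle libraries on the right of each panel, labelled by replicate number. Replicate 09 stands apart from the other libraries at 1 mg/kg/d for Alb, Fgb and Cdh1, and replicate 01 from the other vehicle libraries for RGD1359290.

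Of the 20 genes of smallest p against vehicle, 7 were called between 300 and 1 mg/kg/d, beside 2.88% of all genes. That comparison shares the libraries at 1 mg/kg/d by which the 20 were picked, which favours calls of opposite sign. For 6 of the 7 the sign was opposite to that against vehicle, and for Kbtbd11 it was the same. Tigar rose by 0.75 (SE 0.14, adjusted p = 0.00329 in edgeR) and Tdrkh by 0.41 (SE 0.09, adjusted p = 0.0203). Arhgap22 fell by 0.84 (SE 0.17, adjusted p = 0.00901) and Ptger1 by 0.77 (SE 0.16, adjusted p = 0.0135). Oacyl rose by 0.92 (adjusted p = 0.00415) and Slc44a4 by 0.93 (adjusted p = 0.0407). Kbtbd11 fell by 0.77 (SE 0.17, adjusted p = 0.0178). It had 14.0, 21.3 and 15.9 CPM at 1 mg/kg/d, against 25.96, 26.9 and 30.5 CPM in vehicle, and 8.39 to 11.7 CPM at 300 mg/kg/d. All 14 libraries with DPeP, the highest at 21.3 CPM, were below the lowest vehicle library for Kbtbd11. This gene was picked by its difference from these same vehicle libraries, and the share of all genes with this pattern was not counted. Tigar had 16.9 to 18.6 CPM at 300 mg/kg/d and Arhgap22 11.9 to 21.6 CPM, each overlapping vehicle. Their values against vehicle at 1 mg/kg/d, given above, were not called. For RGD1311744 the difference between 300 and 1 mg/kg/d was 0.13 on the log2 scale (SE 0.24, adjusted p = 0.871 in edgeR).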

How the data were processed

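Polyadenylated RNA of fetal testis was sequenced in 17 libraries with the NEBNext Ultra II RNA kit, per the labels' protocols. Its plain version does not mark strand and no directional one is named, so overlapping and antisense genes carry uncertain counts. The submitters' processing notes name Trimmomatic 0.36, STAR 2.5.2b, featureCounts of Subread 1.5.2, DESeq2, limma and the build mRatBN7.2, without roles or order. The deposited raw counts, as the authors gave them, held 47125 rows for 30652 IDs, and each ID was kept 1 time. Dropping 92 ERCC spike-in rows left 30560 genes, 24044 with a symbol. Groups were compared with edgeR 4.0.16 (R 4.3.3): TMM, filterByExpr, 1 fit of all 17 libraries with dose group, quasi-likelihood F test and Benjamini-Hochberg adjustment over 18005 genes, called under 0.05. DESeq2 1.42.0 and voom of limma 3.58.1 were alternatives. Only the edgeR test was run on simulated counts. These had the same spread of a gene in every dose group, so groups of unequal spread were not examined. Fold changes are relative to total gene counts scaled by TMM factors. Spike-ins were not used for scaling, as the amounts added were not given in the sources used here. Intervals and standard errors cover the spread between libraries.

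The 26 lists held 506 entries, 483 matched and 469 tested; some genes stand in more than 1 list. The members of the comparison, the lists and the named genes were chosen with earlier results of these data known. Named genes, by a rule, were a panel of 12, the 10 of smallest p in each direction, the leading members of each list (called members, or the 2 of highest mean CPM), the 6 of widest spread per group and the 5 largest and 5 smallest fold changes without overlap. Other list members were named after their values were seen, as those with an unadjusted p under 0.05, a central role or counts too few to test. Letters of 2 further, longer motifs searched are not printed; neither was in a promoter of the list. Same-code libraries did not deviate together (r across genes 0.04, -0.26 and -0.01), so the sample code entered as an alternative only. Values of some list members are not reported here, though these genes stay in the counts and medians.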

Additional observations from a re-analysis of the deposited data

Results flagged for a closer look

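Cyp11a1 at 300 mg/kg/d had 1 library at 215.3 CPM, below the other 4 at 287 to 304 CPM, a gap of 0.814 of the group's range. The 12 panel genes were looked at for such a gap in the group of 5 libraries, and chance gives one in about 1 of 20 groups.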

How the results depend on the processing

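For 1 mg/kg/d against vehicle the count of 0 called genes was 1 with no filter on low counts, 3 with the compared groups alone and 2 with the sample code and the compared groups alone, and 0 in the other 13 alternatives, which include each left-out library and an adjusted p under 0.1. At an unadjusted p under 0.05 the 891 genes became 1891 without the 100 mg/kg/d libraries, 1471 with the compared groups alone and 497 without replicate 09 at 1 mg/kg/d. For 300 against 1 mg/kg/d the 518 calls became 1131 with the compared groups alone, 1100 without the 100 mg/kg/d libraries, 332 with the sample code in the fit and 943 in DESeq2, and 202 to 536 with 1 library left out. They were 528 with DESeq2's size factors in edgeR, 578 with no filter, 519 with a filter of 10 counts and 467 in limma voom. The cause of these shifts was not tested. Of 40 named genes at 1 mg/kg/d against vehicle, 36 kept their sign in 15 alternatives; Amh, Cyp11a1, Insl3 and Nr5a1 did not. Of the 26 list medians 17 kept their sign. Leaving out 1 library moved the median by over 1.5 times or turned its sign in 23 lists, all but cholesterol synthesis, germ cell and cell cycle. Ddx4 was called in 1 alternative for 300 against 1 mg/kg/d. With 3 libraries a group and a median standard error of 0.18 on the log2 scale, small differences were not detectable. Leaving out a library leaves 2, whose spread is pooled with the other groups. Mitochondrial shares did not overlap, and 1 library at 1 mg/kg/d had more RNA of myoid genes, collagen, Alb and Fgb. The part of either in the values given above was not tested.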
